A study of Mus musculus with 17 samples.

Results

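The carboxylesterases are hydrolases of ester, amide and thioester bonds that reside mostly in the lumen of the endoplasmic reticulum. In liver they hydrolyse drugs and xenobiotics, and several members also hydrolyse neutral lipids such as triacylglycerol, diacylglycerol and cholesteryl ester. Mouse carries many more family genes than human, in tandem arrays that arose by duplication. The Ces1 genes correspond to human CES1, an enzyme of hepatic lipid handling and prodrug activation, and the Ces2 genes to human CES2, which prefers substrates with a large alcohol group. Some family genes are known to respond to nuclear receptors that sense oxysterols and xenobiotics.

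Described here are 10 family genes in mouse liver: Ces1c, Ces1d, Ces1e, Ces1f, Ces1g, Ces2a, Ces2c, Ces2e, Ces3a and Ces3b. They were taken by symbol from 24676 genes of the deposited table, which held 9 further carboxylesterase genes. The family was chosen by the measured values of Ces2a in these libraries, which were lower in Gata4LKO than in control with GW3965 and higher with GW3965 than with vehicle in control. Those values of Ces2a are therefore descriptions here, and no test of them is offered as support.

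Livers came from male mice of mixed strain aged 11 weeks, all with both Gata4 alleles floxed. At 10 weeks they received adeno-associated virus of serotype 8 (AAV8), either carrying Cre recombinase under the hepatocyte promoter Tbg (Gata4LKO) or empty (control). They were gavaged 1 week later either with 40 mg/kg of GW3965, which activates the oxysterol-sensing liver X receptors (LXR), or with its vehicle, both in canola oil and the vehicle with dimethylsulfoxide. Gavages were given 17 h and 8 h before sacrifice, and the mice were fasted for 4 h. Of the 17 libraries, 4 were of control vehicle, 4 of Gata4LKO vehicle, 4 of control GW3965 and 5 of Gata4LKO GW3965. Every mouse carried the floxed alleles and a virus, and Cre was present only in the Gata4LKO arm, so effects of Cre and of Gata4 loss cannot be told apart.

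Groups follow the sample titles. The treatment field contradicted the title in 8 libraries, those of Gata4LKO vehicle and control GW3965, and the series text gives an age of 9 weeks. Nothing in the labels ties the libraries to separate mice, and p-values then measure only the spread between libraries. Gata4 itself, which encodes the deleted zinc-finger factor, was at 153 ± 27.3 normalized counts (mean ± SD) in control vehicle and 194 ± 44.2 in Gata4LKO vehicle. The GW3965 groups gave 221 ± 44.1 for control and 219 ± 41.2 for Gata4LKO. The whole-gene count includes exons outside any deletion, so it does not check the deletion, and "Gata4LKO" below means the libraries so labelled.

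Reads in genes numbered 11.8 to 22.05 M a library. Mitochondrially encoded genes took 15.6% to 32.6% of normalized counts in 5 libraries and 6.06% to 7.26% in 12. The 5 came from control vehicle (replicate 1), Gata4LKO GW3965 (replicates 17 and 18) and control GW3965 (replicates 10 and 13). A second split followed Gm5345, annotated as a processed pseudogene, on the same chromosome as the family (chr8:40853828-40855027, mm10). It was under 10 normalized counts in 6 libraries, namely all 4 of Gata4LKO vehicle and replicates 9 and 10 of control GW3965. All 8 hepatocyte markers were abundant, with summed normalized counts of 1395530 to 2265890 per library. Of the 3 intestinal markers in the table, Vil1 and Muc2 were under 10 in every library and Lgr5 was at 76.1 to 157. Of the 4 adipocyte markers, Adipoq and Plin1 were under 10 in every library, and Cidec and Cfd reached 58.7 and 76.7.

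The 10 genes lie in 2 tandem clusters on chromosome 8 (mm10 coordinates, GENCODE M21). The Ces1 genes are on the minus strand, from Ces1c (chr8:93099015-93131283) through Ces1d, Ces1e and Ces1f to Ces1g (chr8:93302369-93337308). The Ces2 and Ces3 genes are on the plus strand, from Ces2a (chr8:104734003-104741634) through Ces2c (chr8:104847068-104854483), Ces2e and Ces3a to Ces3b (chr8:105083753-105093929). All 10 are annotated as protein-coding. Near-identical copies limit what a count means: 36.1% of the 50-base words of Ces2c also occur in another gene, mostly the pseudogene Ces2d-ps. That share was 26.2% for Ces3b and 25.6% for Ces3a, which share words with each other. It was 17.3% for Ces2a, mostly with the pseudogene Gm7208. It was 13% for Ces1c, mostly with its neighbour Ces1b. For the other 5 members the shared part was between 0.903% and 3.30%. Ces2d-ps and Gm7208 had at most 2.62 and 1.67 normalized counts in any library, but how the authors treated reads with several matches is not stated in the labels.

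RefSeq promoters (GRCm38.p6) were at hand for 7 of the 10 genes: Ces1c, Ces1e, Ces1g, Ces2a, Ces2c, Ces2e and Ces3b. The 250 bases before the start site are shown for the 3 Ces2 genes, because Ces2a differed between groups while its tandem neighbours did not pass the test, and for Ces1g, the member with the lowest values in Gata4LKO relative to control. Each reads 5′ to 3′ on the gene's own strand, and capitals mark matches to the words searched on both strands: AGGTCA, the core word of many nuclear receptor sites, AGATAA and TGATAA, which GATA factors bind, and TATAAA. They lie at chr8:104733753-104734002 for Ces2a, chr8:104846818-104847067 for Ces2c and chr8:104926010-104926259 for Ces2e (plus strand), and at chr8:93337210-93337459 for Ces1g (minus strand). Positions are counted from the RefSeq start. For Ces1g that start lies inside the GENCODE gene, which reaches to 93337308, so part of its printed bases fall within the annotated gene.
Ces2a: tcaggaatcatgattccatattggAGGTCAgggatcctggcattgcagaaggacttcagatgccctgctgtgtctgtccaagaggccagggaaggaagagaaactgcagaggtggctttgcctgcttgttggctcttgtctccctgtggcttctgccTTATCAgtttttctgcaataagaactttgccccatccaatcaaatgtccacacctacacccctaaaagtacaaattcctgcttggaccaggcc
Ces2c: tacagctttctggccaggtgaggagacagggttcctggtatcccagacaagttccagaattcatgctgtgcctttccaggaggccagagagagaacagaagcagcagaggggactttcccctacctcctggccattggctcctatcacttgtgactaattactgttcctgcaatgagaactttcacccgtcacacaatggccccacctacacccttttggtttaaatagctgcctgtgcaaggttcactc
Ces2e: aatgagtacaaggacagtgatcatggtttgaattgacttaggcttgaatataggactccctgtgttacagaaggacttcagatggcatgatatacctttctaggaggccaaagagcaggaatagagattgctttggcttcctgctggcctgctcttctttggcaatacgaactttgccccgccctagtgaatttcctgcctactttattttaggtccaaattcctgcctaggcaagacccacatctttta
Ces1g: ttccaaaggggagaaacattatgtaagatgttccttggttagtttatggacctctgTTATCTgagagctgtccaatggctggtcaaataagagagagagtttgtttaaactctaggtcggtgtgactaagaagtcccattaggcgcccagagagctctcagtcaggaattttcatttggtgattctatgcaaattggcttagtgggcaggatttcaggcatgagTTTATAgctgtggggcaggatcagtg

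Over the full windows of 300 bases, from 250 before to 50 after the start, Ces2a and Ces2c were the most alike of the 21 promoter pairs, with 65.0% identical positions in a global alignment. Ces2a and Ces2e had 54.9%, Ces2c and Ces2e 54.1%, and the other pairs between 41.6% and 51.5%. AGGTCA occurred in Ces2a alone of the 7, with its first base at -226 from the start, and in 16.3% of all 32851 RefSeq mouse promoters of the same length. AGATAA or TGATAA occurred in 4 of the 7 against 18.6% of all promoters: TGATAA at -93 in Ces2a, AGATAA at -194 and at 3 in Ces1g, at -15 in Ces1e and at -43 in Ces3b. Where a word lies on the opposite strand, as in Ces2a and Ces1g, the capitals show its reverse complement. TATAAA occurred in Ces1g and Ces3b and in 13.6% of all promoters. Direct repeats of AGGTCA, named DR4 (the spacing LXR heterodimers bind) and DR1, were in none of the 7 windows and in 0.0152% and 0.0396% of all, respectively. A match is a description of letters and was not tested for binding.

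Per kilobase of exon, the members spanned a wide range in control liver given vehicle, and the order of the levels was led by a secreted enzyme. In control vehicle, Ces1c, which is released into plasma, was at 14072 ± 2531 normalized counts per kb (SD, n = 4). Ces3a followed at 6962 ± 1176 and Ces1d, also called triacylglycerol hydrolase, at 5349 ± 1115, with overlapping ranges. Ces1f was at 3293 ± 205 and Ces3b at 2087 ± 616. Ces1e, also known as egasyn, the protein that holds beta-glucuronidase in the endoplasmic reticulum, was at 1234 ± 107, and its range overlapped that of Ces2a at 1087 ± 59.6. Ces2e at 793 (703 to 933 over the libraries) and Ces1g at 649 ± 120.1 overlapped too, and Ces2c was lowest at 139.6 ± 43.3. The 3 Ces2 members thus stood in the lower 4 places, whereas the Ces1 members reached from first to ninth place. The order of 10 was the same in Gata4LKO vehicle. With GW3965, Ces1d stood above Ces3a and Ces1e above Ces3b in both genotypes, by less than the larger of the 2 SDs in each case.

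**Figure D1:**
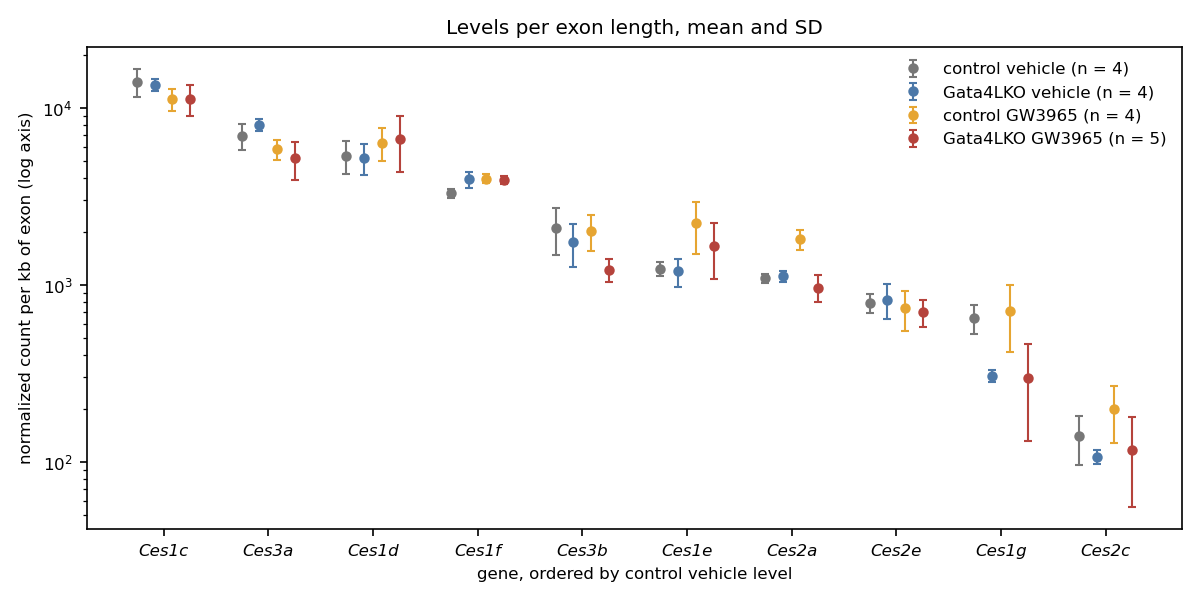
Mean and SD (error bars) of normalized counts per kb of exon on a log axis for the 10 carboxylesterases in the 4 groups (n = 4, 4, 4 and 5 libraries), ordered by the control vehicle mean. Ces1c lies near 14072 and Ces2c near 139.6 in control vehicle, and Ces2a in control GW3965 stands above its other 3 groups.

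Together the 10 genes took 0.285% to 0.638% of all normalized counts in a library (median 0.567%). Among the other carboxylesterases, Ces1b was well expressed, at 3542 to 6640.3 normalized counts, and Ces2g ranged from 258 to 866. Ces1a and Ces4a also passed the filter, with highest values of 19.3 and 65.2. Ces2b and Ces2h reached 59.6 and 36.8 in a single library at most, and Ces1h, Ces2d-ps and Ces2f stayed at or below 2.62. All 10 members passed the filter of at least 10 normalized counts in at least 4 libraries, as did 13379 genes in all. Differences below are given in log2 of the normalized count + 1, with their SE from limma after the sign ±. A gene was called at a Benjamini-Hochberg adjusted p below 0.05 over those 13379 genes. Where DESeq2 is named, it called 0.423% of its genes between genotypes with vehicle, 0.61% between genotypes with GW3965, 1.77% and 1.49% with GW3965 in control and in Gata4LKO, and 0.194% for the interaction.

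Ces2a, a hydrolase of di- and triacylglycerol in the endoplasmic reticulum, was near one level in 3 of the groups and higher in control liver given GW3965. Its normalized counts were 2362, 2628, 2586 and 2683 in control vehicle. They were 2779, 2801, 2429 and 2566 in Gata4LKO vehicle. They were 4266, 4199, 4985 and 3665 in control GW3965. In Gata4LKO GW3965 they were 2151, 2004, 2932, 2316 and 1969. The lowest control GW3965 library lay above every library of the other 3 groups, whose ranges overlapped. Control GW3965 was 1.66-fold above control vehicle (0.73 ± 0.12), and Gata4LKO GW3965 was at 0.529 of control GW3965 (-0.92 ± 0.12). Both differences passed the threshold and are those by which the family was put forward.

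Among the 10 members, Ces2a took 2.90% ± 0.23 of their summed counts in control vehicle, 2.92% ± 0.20 in Gata4LKO vehicle and 2.88% ± 0.55 in Gata4LKO GW3965. In control GW3965 it took 4.86% ± 0.21, with libraries between 4.66% and 5.15% against at most 3.59% elsewhere. With vehicle the genotype difference of Ces2a was within its error (0.04 ± 0.12, 95% interval -0.22 to 0.30, limma adjusted p = 0.981). In Gata4LKO, GW3965 against vehicle gave -0.23 ± 0.12 (interval -0.48 to 0.02, limma adjusted p = 0.439), and those ranges overlapped. The interaction, the difference between the GW3965 responses of the genotypes, was -0.96 ± 0.17 (interval -1.32 to -0.60). It missed the threshold at limma adjusted p = 0.0817. It uses the same libraries as the comparisons that put the gene forward.

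The adjusted p of the Ces2a interaction depended on the tool. The values that follow are descriptions, since the libraries are those that put the gene forward, and none is offered as support. DESeq2 on the recovered reads gave adjusted p = 4.24e-04, edgeR's quasi-likelihood test 0.101, and the authors' deposited table lists 4.82e-04. Without replicate 16 of Gata4LKO GW3965, the Gata4LKO GW3965 library with the highest Ces2a, limma gave 0.0190, and without replicate 13 of control GW3965, the lowest of its group, 0.032; the other 15 fits that left out a library stayed above the threshold, up to 0.224. As a description, the 2 differences of Ces2a by which the family was chosen were -0.99 and 0.81 without the 5 libraries of high mitochondrial share. That fit held only replicates 9 and 12 of control GW3965. With Gm5345 state as a covariate the 2 differences were -0.93 and 0.74 and no longer past the threshold.

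Summed markers of other cells differed in range between groups, with 1 marker gene called. The summed Kupffer cell and macrophage markers ranged from 2055 to 2869 normalized counts in control vehicle. They ranged from 3576 to 4121 in Gata4LKO vehicle, from 3584 to 6204 in control GW3965 and from 3703 to 5530.2 in Gata4LKO GW3965. None of the 8 was at 0 throughout, and 1, Cd5l, was called, with GW3965 in control (1.21 ± 0.21, limma adjusted p = 0.0126). Stellate cell and fibroblast markers summed to 3892 to 5645 in Gata4LKO GW3965, above the 2898 to 3656 of control GW3965 and overlapping the 2701 to 4052 of Gata4LKO vehicle. In control vehicle they summed to 2792 to 3592, and 0 of the 6 were called. Of the endothelial, blood, pancreas, intestinal and adipocyte markers tested, 0 were called either. The 8 markers of hepatocytes, the cells in which liver carboxylesterases are mostly made, summed to 1861690 to 1989750 in control vehicle and 1515980 to 1735820 in Gata4LKO vehicle. With GW3965 they summed to 1541150 to 2265890 in control and 1395530 to 1770910 in Gata4LKO, which overlapped, and 0 of the 8 were called. Their part in any difference below was not tested, and in whole liver fewer cells of a type and less RNA per cell cannot be told apart.

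**Figure D2:**
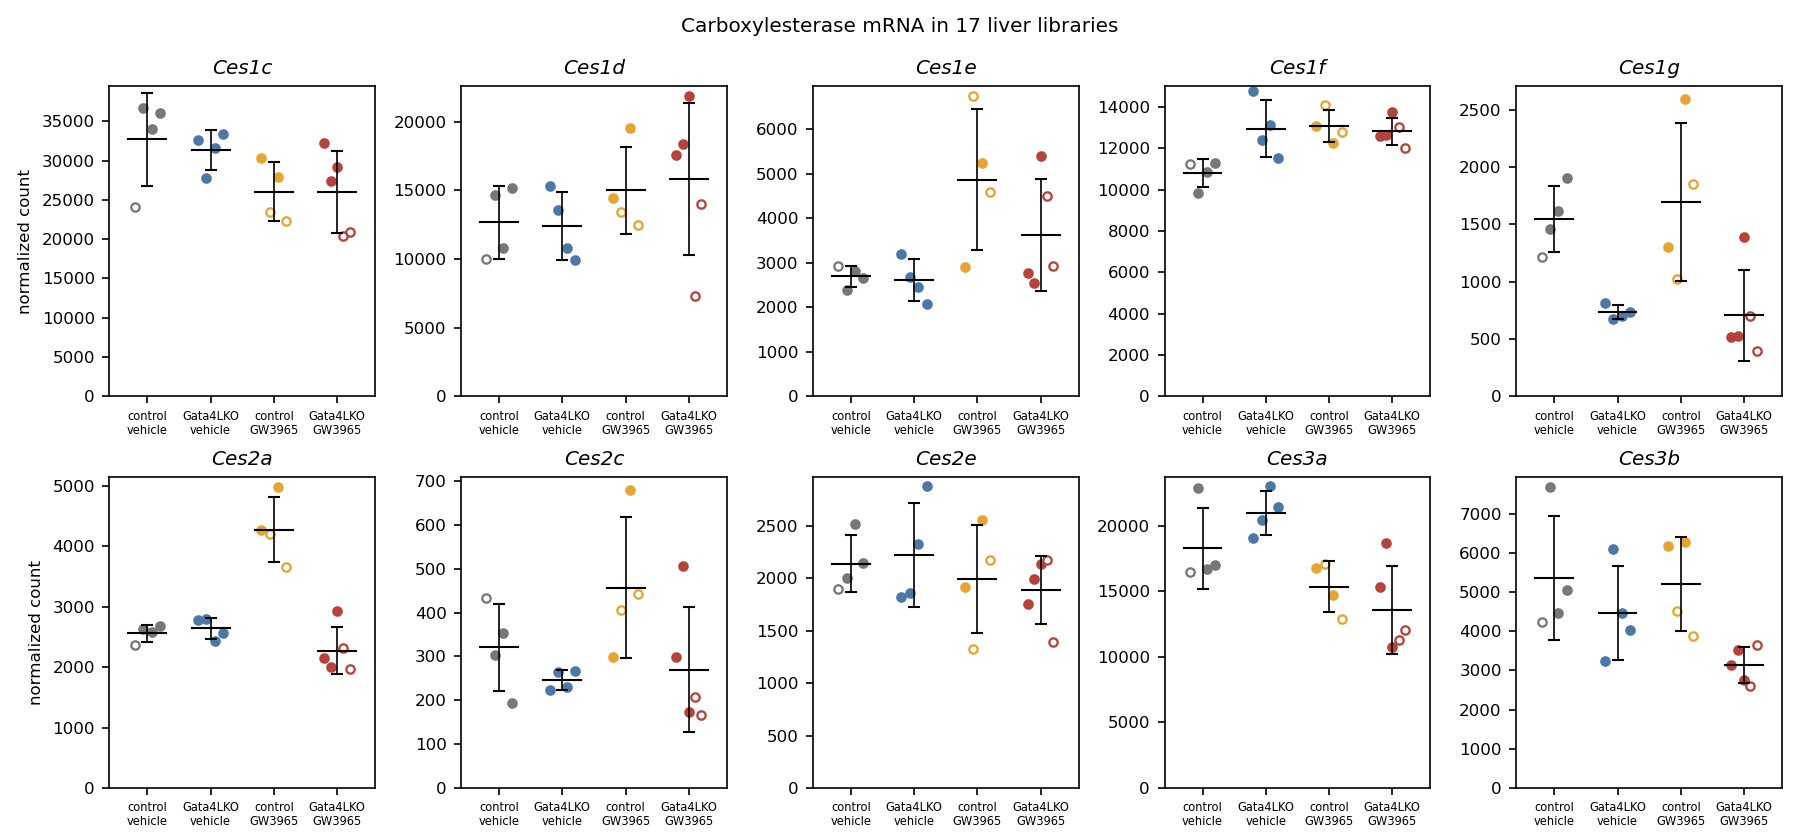
Normalized counts of the 10 carboxylesterases (one panel each, linear axis from 0) by library in the 4 groups; points are libraries, open points the 5 libraries of high mitochondrial share, horizontal lines group means and error bars SD. Ces2a is at 3665 or above in the 4 control GW3965 libraries and at 2932 or below in all others.

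Between genotypes with vehicle, limma called 0 of the 10 members, against 0.0149% of all genes called (2 of 13379). At an unadjusted p below 0.05 there were 2, Ces1f and Ces1g, against 6.15% of all genes. The same 2 had ranges that did not overlap between genotypes, which held for 6.58% of all genes. The median difference over members was -0.04, against -0.01 over all genes, with 4 positive and 6 negative, of which Ces1c, Ces1d and Ces1e were positive when counts were rescaled to nuclear genes.

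Ces1g, a lipid hydrolase of the endoplasmic reticulum, had the lowest values in Gata4LKO relative to control of any member. Its normalized counts were 1218, 1463, 1617 and 1902 in control vehicle and 816, 680, 705 and 737 in Gata4LKO vehicle. With GW3965 they were 1306, 1025, 2594 and 1854 in control. In Gata4LKO GW3965 they were 517, 529, 1388, 705 and 400. Every Gata4LKO vehicle library lay below every control vehicle library, while with GW3965 replicate 16 of Gata4LKO overlapped the control range.

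The vehicle difference of Ces1g was -1.06 ± 0.31 (interval -1.71 to -0.41, limma adjusted p = 0.407). With GW3965 it was -1.32 ± 0.29 (interval -1.93 to -0.70, limma adjusted p = 0.137), and without replicate 16 limma called it at -1.59 (adjusted p = 0.0103). That was the only call of Ces1g in 9 fits that each left out a library of the GW3965 groups, and limma adjusted p reached 0.312. Over all genes those fits called 2 to 21. DESeq2 gave adjusted p = 0.102 and 0.0128 for the comparisons, and the authors' deposited table lists 0.101 and 0.0137. Both comparisons had the same sign with no control library in common, and the interaction was -0.25 ± 0.42 (limma adjusted p = 0.997). The Gm5345 split coincided in part with the values of Ces1g. Replicates 9 and 10 of control GW3965, both under 10 for Gm5345, had the 2 lowest Ces1g values of their group, and with Gm5345 state as a covariate the vehicle difference was -0.14. All Gata4LKO vehicle and no control vehicle libraries were under 10, so genotype and Gm5345 state cannot be told apart there. All 5 Gata4LKO GW3965 libraries had Gm5345 above 10, and with the covariate their difference from control was -1.78.

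Ces1f, the gene between Ces1e and Ces1g in the array, was at 10816 ± 674 in control vehicle and 12955 ± 1377 in Gata4LKO vehicle (0.26 ± 0.10, limma adjusted p = 0.688). In control GW3965 it was at 13071 ± 780.4 and in Gata4LKO GW3965 at 12817 ± 649. Control vehicle was the low group, and the other 3 overlapped. For the other 8 members the vehicle differences between genotypes lay between -0.33 for Ces2c and 0.21 for Ces3a, and their 95% intervals reached from -0.99 to 0.56.

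With GW3965, 9 of the 10 members had lower mean log2 values in Gata4LKO than in control, of which Ces1c, Ces1f and Ces2e were higher when rescaled to nuclear genes. One was called. The member called was Ces2a, against 0.0598% of all genes called (0.0448% called lower). The comparison put the family forward, so nothing is read from this call or from the counts and median below that include Ces2a. At an unadjusted p below 0.05 there were 4, all lower (Ces1g, Ces2a, Ces2c and Ces3b), against 6.47% of all genes (3.39% lower). The groups did not overlap for Ces2a and Ces3b, both lower, against 1.96% of all genes (1.14% lower). The median over members was -0.31, against -0.01 over all genes.

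Ces3b, a liver carboxylesterase with its closest copy in Ces3a, was at 4222, 7666, 4474 and 5048 in control vehicle. In Gata4LKO vehicle it was at 3241, 6097, 4469 and 4032. In control GW3965 it was at 6168, 4505, 6267 and 3867. In Gata4LKO GW3965 it was at 3133, 3528, 2751, 2605 and 3645, below every control GW3965 library. The difference was -0.71 ± 0.20 (interval -1.14 to -0.29, limma adjusted p = 0.287), and the authors' deposited table lists an adjusted p of 0.0858. Since 26.2% of its 50-base words also occur in other genes, here Ces3a, its counts are uncertain to the extent that reads were shared out.

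Ces2c, a triacylglycerol hydrolase of intestine and liver, was low and variable. Its normalized counts were 432, 304, 353 and 194 in control vehicle and 222, 265, 231 and 266 in Gata4LKO vehicle. They were 299, 405, 680.2 and 442 in control GW3965, and 298, 506, 172, 206 and 166 in Gata4LKO GW3965. The ranges overlapped within each of the 4 comparisons between single groups. The difference between genotypes with GW3965 was -0.83 ± 0.30 (interval -1.46 to -0.20, limma adjusted p = 0.585), similar in size to that of Ces2a but with a wider interval.

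GW3965 against vehicle in control liver gave 1 call among the 10, Ces2a again, against 0.792% of all genes called (0.605% called higher). This comparison also put the family forward, so nothing is read from this call or from the counts and median below that include Ces2a. Ces1e and Ces1f joined Ces2a at an unadjusted p below 0.05, all 3 higher, against 8.96% of all genes (5.02% higher). Ces1f and Ces2a had ranges that did not overlap, against 5.84% of all genes (3.13% higher). The median over members was 0.15, against -0.01 over all genes.

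Ces1e had the largest estimate after GW3965 in control, carried by 3 of 4 libraries. Its normalized counts were 2932, 2392, 2816 and 2667 in control vehicle and 3207, 2688, 2454 and 2085 in Gata4LKO vehicle. In control GW3965 they were 2910.5, 6740.3, 5235 and 4589.6. In Gata4LKO GW3965 they were 2770.1, 2556, 5409, 4509 and 2923. Replicate 9 of control GW3965 was within the range of control vehicle and the other 3 were above it. In Gata4LKO GW3965, replicates 16 and 17 were above the range of Gata4LKO vehicle and the other 3 within it. The difference was 0.79 ± 0.24 in control (interval 0.28 to 1.30, limma adjusted p = 0.204) and 0.43 ± 0.23 in Gata4LKO (interval -0.06 to 0.92, limma adjusted p = 0.452). In control, DESeq2 gave an adjusted p of 0.0456 and the authors' deposited table lists 0.0466. Without the 5 libraries of high mitochondrial share, which left only replicates 9 and 12 of control GW3965, the control difference was 0.58.

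**Figure D3:**
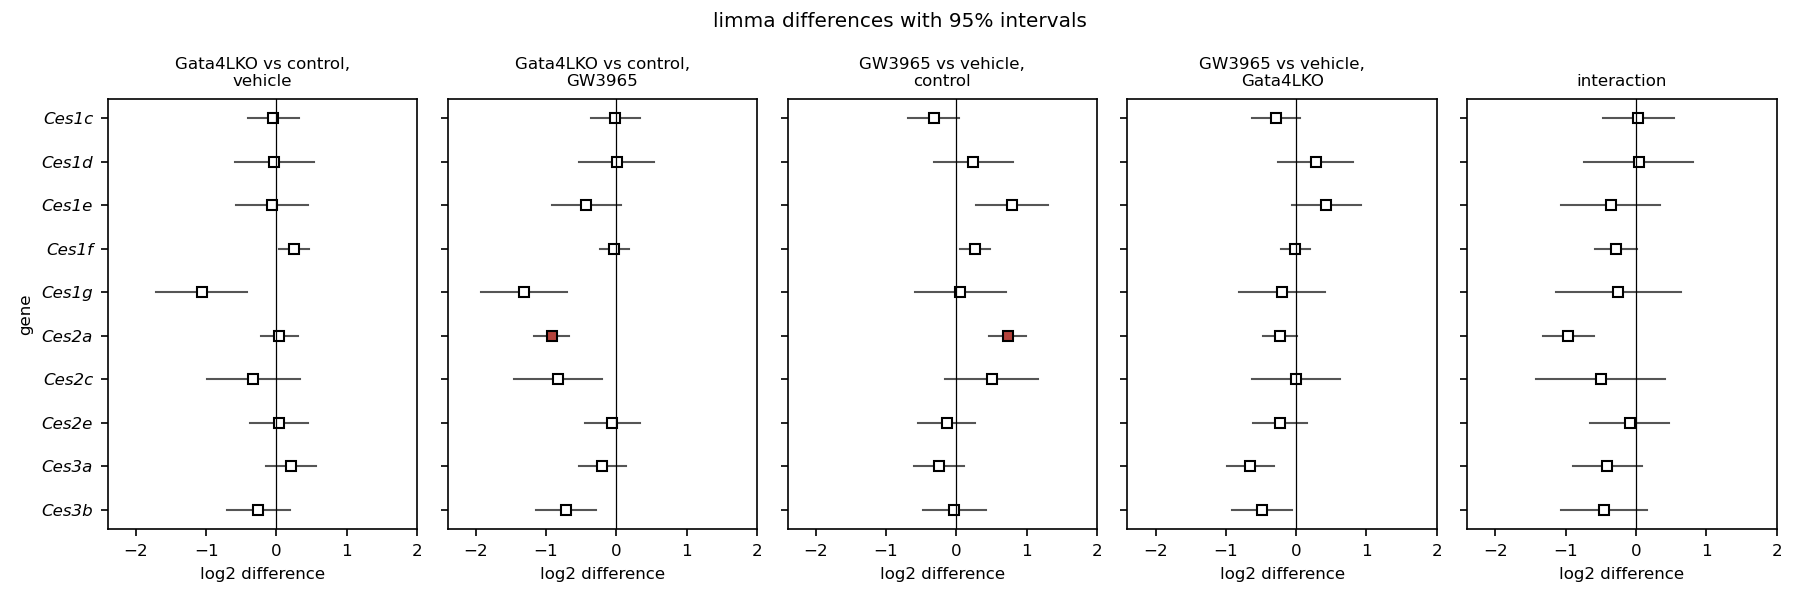
Log2 differences from limma (squares) with 95% intervals (lines) for the 10 carboxylesterases in the 4 comparisons and the interaction; filled squares passed the threshold of an adjusted p below 0.05. Filled squares are Ces2a in 2 panels, at -0.92 and 0.73.

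In Gata4LKO liver, GW3965 against vehicle gave 0 calls among the 10, against 0.247% of all genes called, and 2 at an unadjusted p below 0.05, Ces3a and Ces3b, against 12% of all genes. Both were lower with GW3965, against 5.55% of all genes. Ces3a alone had ranges that did not overlap, against 5.25% of all genes (2.34% lower). The median over members was -0.21, against -0.0049 over all genes.

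Ces3a, the most abundant member of the second cluster, was at 16511, 22911, 16688 and 17045 in control vehicle. It was at 19059.8, 20469.8, 23056 and 21435 in Gata4LKO vehicle, the group with the highest mean. In control GW3965 it was at 16770.1, 17074, 14721 and 12860.3. In Gata4LKO GW3965 it was at 15315, 18698, 10744, 11273 and 12022, each below every Gata4LKO vehicle library. The difference in Gata4LKO was -0.66 ± 0.16 (interval -0.99 to -0.32, limma adjusted p = 0.0936). DESeq2 gave an adjusted p of 0.0177 and the authors' deposited table lists 0.0187. Leaving out replicate 15 of Gata4LKO GW3965, the highest Ces3a library of that group, limma called it at 0.0205. That was the only call of Ces3a in 9 fits that each left out a library of these groups, and limma adjusted p reached 0.294. Over all genes those fits called 6 to 78. Without the libraries of high mitochondrial share the difference was -0.53 (limma adjusted p = 0.259). In control the difference was -0.25 ± 0.17 (limma adjusted p = 0.804). The difference between the responses, the interaction, was -0.41 ± 0.23 (limma adjusted p = 0.997), so a genotype difference in the response of Ces3a was not shown.

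Ces3b gave -0.48 ± 0.20 for GW3965 in Gata4LKO (limma adjusted p = 0.364) and -0.03 ± 0.21 in control (limma adjusted p = 0.994). Over all 10 members limma called 0 interactions, against 0.0149% of all genes, and Ces2a was the one member at an unadjusted p below 0.05, against 4.65% of all genes. The interaction estimates ran from -0.96 for Ces2a to 0.03 for Ces1d, with 8 negative and a median of -0.32 against -0.0041 over all genes. The interaction of Ces2a uses the libraries whose Ces2a values put the family forward. Nothing is read from its p, or from the counts and median here that include Ces2a. Comparisons that share a group of libraries are not independent, so no count is read across them.

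Ces1d and Ces2e showed no difference past the threshold in any comparison. Ces1d ranged from 9995 to 15181 in control vehicle, from 9937 to 15332 in Gata4LKO vehicle and from 12476 to 19572 in control GW3965. In Gata4LKO GW3965 it ranged from 7280.1 to 21865, the widest spread of any of its groups. Ces2e ranged from 1899 to 2517, 1822 to 2884, 1328 to 2554 and 1388 to 2177 in the same order of groups. Within the 4 single comparisons the 95% intervals of Ces1d reached from -0.59 to 0.81 and those of Ces2e from -0.61 to 0.44. Differences within those bounds are compatible with these libraries.

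Ces1c, the secreted enzyme, was divided by a library property. It was at 20409 to 24049 in the 5 libraries of high mitochondrial share and at 27424 to 36717 in the other 12, with no overlap. Rescaled to counts per M normalized counts of nuclear genes alone, the 2 sets were still apart, at 1336 to 1510 and 1824 to 2369. No other member separated these libraries: Ces2a was at 1969 to 4199 in the 5 and 2004 to 4985 in the 12. Ces1b, the neighbour of Ces1c and not a member, nearly did, at 3542 to 4880 in the 5 and 4659 to 6640 in the 12. Rescaled to nuclear genes, Ces1b was at 232 to 306 and 305 to 429. The share of all genes that separate the 2 sets was not counted, so the split is not shown to be particular to Ces1c. The differences of Ces1c for GW3965 were -0.32 ± 0.17 in control (limma adjusted p = 0.653) and -0.29 ± 0.16 in Gata4LKO (limma adjusted p = 0.472). Of the 5 libraries, 1 was given vehicle and 4 GW3965, and without them the difference was -0.29 in control and -0.08 in Gata4LKO. What sets these libraries apart was not tested.

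**Figure D4:**
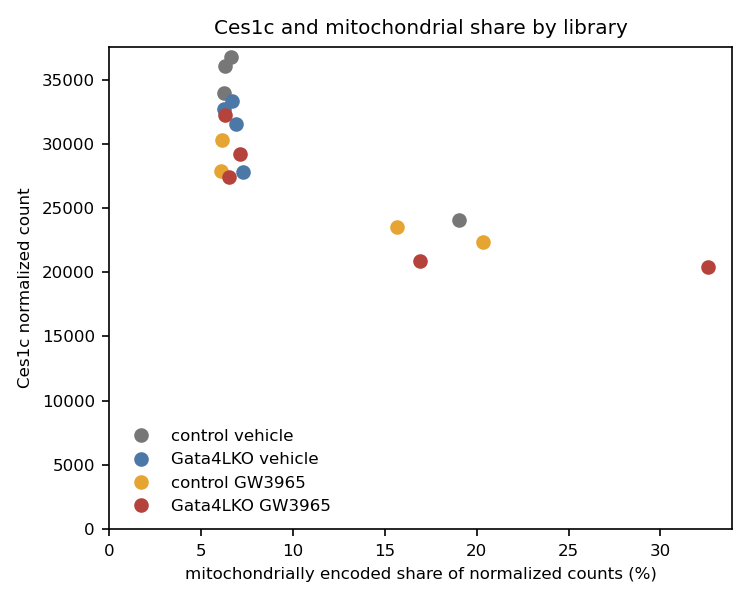
Ces1c normalized counts (vertical axis, from 0) against the share of normalized counts from mitochondrially encoded genes in percent (horizontal axis) for 17 libraries coloured by group. The 5 libraries above 15% have Ces1c values of 20409 to 24049, all below the other 12.

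Covariation of the members between libraries was described by subfamily (Ces1, Ces2 or Ces3). After the group means were subtracted, Pearson's r over the 17 libraries had a median of 0.26 over the 14 pairs of the same subfamily and -0.01 over the 31 pairs of different subfamilies. The highest r was Ces1g with Ces2a at 0.76 (Spearman's rho 0.57), from different clusters, and the lowest Ces1f with Ces3b at -0.62 (rho -0.61). Replicate 16 of Gata4LKO GW3965 had the highest value of its group for both Ces1g and Ces2a. By rho the highest pair was Ces1c with Ces1d, at 0.66. All pairs share libraries, depth and normalization, so these values are descriptions. The genes outside the family most like Ces2a after subtraction were Hnmt, a histamine methyltransferase (r = 0.87), the ribosomal protein gene Rpl37a (0.86) and Ankrd10 (0.83). With group means kept, and with them the group pattern by which Ces2a was chosen, they were Soat2, which esterifies cholesterol (0.85), Stk38l (0.85, rho 0.51) and Fam13a (0.82). For Ces1c the closest was Atxn7l3b (0.97), for Ces1d Trim35 (0.95), for Ces1e Gm31522 (0.87) and for Ces1f Tmem8b (0.75). For Ces1g it was Rmdn3 (0.82), for Ces2c Aatk (0.85), for Ces2e Cox7b (0.92), for Ces3a Spin1 (0.89) and for Ces3b Sspo (0.92). Each is the highest among the genes kept by the filter.

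Lists of related genes were counted in the same fits. Of 18 LXR targets, 15 were called higher with GW3965 in control and 6 in Gata4LKO, against the 0.792% and 0.247% of all genes called. Positive differences were found for 17 of the 18 in each genotype (medians 1.27 in control and 0.996 in Gata4LKO), and 0 of their interactions were called. The calls were led by the desaturases Scd1 (3.10 ± 0.60 and 3.15 ± 0.57, limma adjusted p = 0.0215 and 0.0252) and Scd2 (2.53 ± 0.20 and 2.38 ± 0.19). The fatty acid synthase Fasn (2.39 ± 0.50) in control and the sterol transporter Abcg1 (1.44 ± 0.28) in Gata4LKO were also called. Of 20 PPARA targets, 5 were called higher in control, among them the thioesterase Acot1 (2.61 ± 0.45), Ehhadh (2.61 ± 0.38) and Acaa1b (2.49 ± 0.31), and 3 in Gata4LKO. Those 3 were Ehhadh (2.20 ± 0.36), Acaa1b (1.83 ± 0.29) and Acot2 (1.57 ± 0.30). In each genotype 16 of the 20 had positive differences (medians 0.73 in control and 0.55 in Gata4LKO), and 0 of their interactions were called.

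Among 22 other lipases and esterases tested, 2 were called higher with GW3965 in control, against 0.792% of all genes called (0.605% called higher). They were the lipoprotein lipase Lpl (1.87 ± 0.32, limma adjusted p = 0.0105) and the lysosomal acid lipase Lipa (0.51 ± 0.11, adjusted p = 0.0357). Lpl is also in the list of LXR targets above, so its call is not separate from that list. In Gata4LKO only Lipa was called (0.69 ± 0.10), against 0.247% of all genes called. Between genotypes none of the 22 was called; the smallest unadjusted p belonged to Nceh1 with vehicle (0.43 ± 0.15) and to the arylacetamide deacetylase Aadac with GW3965 (-0.57 ± 0.16). Of 22 PXR and CAR targets tested, 1 was called, the transporter Abcc4 with GW3965 in control (1.66 ± 0.33). Of 17 genes of VLDL assembly and triglyceride storage tested, 0 were called in any comparison at limma adjusted p below 0.05; Mttp with vehicle (-0.47 ± 0.10, adjusted p = 0.147) and Soat2 with GW3965 (-1.02 ± 0.20, adjusted p = 0.0847) came closest between genotypes. Of 21 transcription factors, Srebf1 was called with GW3965 in control (2.26 ± 0.40); Gata6, a paralog of Gata4, had the smallest p in each of the other comparisons and was not called.

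The other carboxylesterases gave 0 calls among the 4 tested. Ces2g, which lies next to Ces2f in the second cluster, had lower values in Gata4LKO in both comparisons, at 435 ± 86.1 against 793 ± 72.7 with vehicle (-0.88 ± 0.22, limma adjusted p = 0.304) and 364 ± 125 against 638 ± 145 with GW3965 (-0.84 ± 0.21, adjusted p = 0.188). The authors' deposited table lists adjusted p of 0.0457 and 0.0458, and without the 5 libraries of high mitochondrial share limma gave 0.0261 and 0.0116. The latter rests on only replicates 9 and 12 of control GW3965. With Gm5345 state as a covariate the differences were -0.45 with vehicle and -1.05 with GW3965, and neither was called. Genotype and Gm5345 state cannot be told apart with vehicle. Fits that left out a library called Ces2g in 0 of 8 with vehicle and 1 of 9 with GW3965. Their limma adjusted p reached 0.660 and 0.408, and the ranges with GW3965 overlapped. Over all genes those fits called 0 to 3 with vehicle and 2 to 21 with GW3965. Ces1b gave -0.41 ± 0.14 with GW3965 in control and -0.34 ± 0.14 in Gata4LKO, with limma adjusted p = 0.331 and 0.353. Within 500.0 kb of the clusters, 0 of 5 other genes near the Ces1 genes and 1 of 27 near the Ces2 and Ces3 genes were called in any comparison. The one was Gm8798 (chr8:104886862-104902787), a transcribed pseudogene between Ces2c and Ces2e that shares 53.0% of the 50-base words of Ces2d-ps. It was at 5.89 ± 5.37 in control vehicle, 7.38 ± 3.72 in Gata4LKO vehicle, 31.4 ± 15.6 in control GW3965 and 12.4 ± 4.24 in Gata4LKO GW3965. GW3965 against vehicle gave 2.42 ± 0.52 in control (limma adjusted p = 0.0368). The high group was thus the same as for Ces2a, at counts so low that the log2 value depends on the pseudocount. Gm45909, which lies inside Ces1d on the same strand, was at 86.8 ± 13.9, 188 ± 20.2, 153 ± 49.0 and 124 ± 35.0 in that order of groups and was not called.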

How the data were processed

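RNA of frozen liver was measured in 17 libraries made with an mRNA kit, per the labels' protocols. Reads were aligned with STAR 2.6.0c to mm10, and FastQC and DESeq2 were also used, per the submitters' processing notes. No source used here gives the counter, the annotation, the strand setting or the treatment of reads with several matches. The authors deposited a normalized signal, that is read counts divided by 1 size factor per library: 100% of values were whole multiples of 1 read within 0.05 read. Per the file headers, each deposited comparison table lists every gene's log2 fold change with its p-value, raw and adjusted.

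Log2(normalized count + 1) was tested with limma-trend (version 3.58.1 under R 4.3.3). The fit had a coefficient for each group over the 17 libraries and Benjamini-Hochberg adjustment over 13379 genes with at least 10 normalized counts in at least 4 libraries. Fold changes of low genes are understated on this scale. The filter, pseudocount, scaling, covariates, left-out libraries, edgeR 4.0.16 and DESeq2 1.42.0 on the recovered reads were alternatives; edgeR called 5 genes and DESeq2 80 between genotypes with GW3965. Leaving out a library kept at least 3 in each group. Depth was 11.8 to 22.05 M reads per library, and no interval here rests on counting error alone.

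The simulated 2-fold changes recovered by limma, among 13379 genes, were 59% for genotype with vehicle, 67% for genotype with GW3965, 63% for GW3965 in control and 56% for GW3965 in Gata4LKO. Recovery of 4-fold changes was 82%, 88%, 84% and 88% in that order, with 10, 10, 4 and 7 false calls. The simulation drew each gene independently, without the mitochondrial or Gm5345 splits. It held more changed genes than the fit called in any comparison here. The percentages therefore describe the simulation and are not the power of these libraries.

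The members, gene lists, markers and alternatives were chosen with earlier results of these data known. Genes named are all members, the other carboxylesterases by level, per list and comparison up to 3 called genes or else the one of smallest p, of which those of some lists are given, the genes of most similar pattern, and Gata4 and Gm5345. Sequence words of 50 bases were compared over GENCODE M21 transcripts. Promoters are RefSeq's for GRCm38.p6.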

Additional observations from a re-analysis of the deposited data

Results flagged for a closer look

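Each of the 10 genes was examined in each of the 4 groups, 40 sets of 4 or 5 libraries, for a highest or lowest library far from the rest, which chance alone flags in about 1 of 20 sets. One stood out. Ces3a in replicate 2 of control vehicle was at 22911 normalized counts, and the other 3 libraries of that group were at 16511 to 17045, so the gap was 0.917 of the whole range, above the limit of Dixon's test for 4 values. The value lay within the range of the Gata4LKO vehicle libraries, 19059.8 to 23056.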

How the results depend on the processing

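No paired analysis was possible because replicate numbers are unique to each library. The call of Ces2a, a description since its values chose the family, was lost in 3 cases: between genotypes with GW3965 when only the groups compared were fitted (0 members called, limma adjusted p = 0.126), and in both comparisons with the Gm5345 covariate (0 members called in each, limma adjusted p = 0.0546 and 0.116). Fitting only the vehicle groups called 1 member, Ces1g (limma adjusted p = 0.0131). DESeq2 called 2 members between genotypes with GW3965, 2 with GW3965 in control, 1 with GW3965 in Gata4LKO and 1 for the interaction. The mitochondrial covariate called 1 interaction (Ces2a, limma adjusted p = 0.0477). Calls of the Ces2a interaction are descriptions too, for the same reason. The cause of these changes was not tested.

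Every reversal was of a difference that was not called, 30 in all outside the fits that left out 1 library. Rescaling to nuclear genes moved the median of all genes by 0.113 with vehicle and 0.118 with GW3965 between genotypes. It gave 0.069 for Ces1c, 0.086 for Ces1d and 0.050 for Ces1e with vehicle, all under that shift. With GW3965 it gave 0.11 for Ces1c, 0.092 for Ces1f and 0.065 for Ces2e, under the shift too. It gave -0.0058 for Ces2c with GW3965 in Gata4LKO, and TMM scaling gave -0.0048 there. Without the 5 libraries of high mitochondrial share, Ces2e was at -0.018 between genotypes with vehicle. Ces1c was then at 0.023 and Ces1f at 0.036 between genotypes with GW3965. Ces2e was at 0.000393 and Ces3b at 0.16 with GW3965 in control, and Ces1f at 0.010 in Gata4LKO. The mitochondrial covariate gave 0.037 for Ces1c between genotypes with GW3965 and 0.017 for Ces3b with GW3965 in control. For that genotype difference of Ces1c, edgeR gave 0.000618 and DESeq2 0.0023. The Gm5345 covariate gave 0.14 for Ces1d, 0.082 for Ces1e, 0.33 for Ces2c and -0.088 for Ces3a between genotypes with vehicle. With GW3965 it gave 0.036 for Ces1c, -0.075 for Ces1d and 0.031 for Ces1f. It gave 0.15 for Ces2e with GW3965 in control, and 0.11 for Ces1f and -0.65 for Ces2c in Gata4LKO. Its interactions were -0.21 for Ces1d and 0.040 for Ces3a. The cause was not tested.

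Leaving out 1 library at a time changed the sign or the call of some differences, except that none listed for Ces1g between genotypes, Ces3a or Ces2a changed sign. Between genotypes with vehicle the ranges were -0.19 to 0.018 for Ces1c, -0.14 to 0.072 for Ces1d, -0.17 to 0.038 for Ces1e and -0.097 to 0.12 for Ces2e. With GW3965 they were -0.096 to 0.070 for Ces1c, -0.13 to 0.26 for Ces1d, -0.058 to 0.0098 for Ces1f, -1.59 to -1.08 for Ces1g and -0.24 to 0.078 for Ces2e. For GW3965 in control they were -0.18 to 0.27 for Ces1g, -0.27 to 0.046 for Ces2e and -0.13 to 0.16 for Ces3b. In Gata4LKO they were -0.066 to 0.054 for Ces1f, -0.26 to 0.14 for Ces2c and -0.78 to -0.58 for Ces3a. For the interaction they were -0.051 to 0.17 for Ces1c, -0.10 to 0.29 for Ces1d, -1.06 to -0.89 for Ces2a and -0.27 to 0.042 for Ces2e. Members called were 1 to 2 between genotypes with GW3965 (2 without Gata4LKO GW3965 replicate 16, the second being Ces1g). They were 0 to 1 with GW3965 in Gata4LKO (Ces3a without Gata4LKO GW3965 replicate 15). For the interaction they were 0 to 1 (Ces2a without control GW3965 replicate 13 or Gata4LKO GW3965 replicate 16). Genes called over the whole table in the same fits ranged from 2 to 21, 6 to 78 and 0 to 9 in that order. In the fit reported they were 8, 33 and 2. Whether the added member calls only follow that spread was not tested.

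Genes called over the whole table depended on the tool and covariates. Against 2, 8, 106, 33 and 2 in the fit reported (genotype with vehicle, genotype with GW3965, GW3965 in control, GW3965 in Gata4LKO, interaction), DESeq2 called 50, 80, 228, 195 and 26. The Gm5345 covariate left 0, 2, 12, 1 and 0, the mitochondrial covariate gave 13, 51, 203, 40 and 4, and limma without trend 0, 2, 62, 15 and 0. Fitting only the groups compared gave 21, 1, 19 and 30 for the first 4. Without the high mitochondrial libraries they were 14, 9, 63, 23 and 1, and with no filter 57 were called with GW3965 in control.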
